A study of Mus musculus with 48 samples.

Results

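Heme is made by a short chain of enzymes, and the 8 genes described here encode the enzymes that open that chain and most of those that complete it. They were chosen by symbol alone: Alas1, Alas2, Alad, Uros, Urod, Cpox, Ppox and Fech were matched to Ensembl identifiers in the GENCODE M21 annotation, and all 8 are among the 22055 genes of the deposited tables. The list does not cover every enzyme of the pathway. Wild-type C57BL/6 mice, with no transgene or treatment in any group, gave liver, lung, heart, kidney, brain and retina at postnatal day 42 (P42) and at embryonic day 15.5 (E15.5). Each tissue and stage has 2 biological replicates by RNA-seq of polyadenylated RNA and 2 by Ribo-seq, which makes 24 groups and 48 libraries. Ribo-seq sequences the fragments of message that ribosomes protect from nuclease (footprints), so its values follow ribosomes on a message rather than messages. The design set stages and tissues side by side and asked what differs between them in messages and in their translation.

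Heme synthesis begins and ends in the mitochondrion, with its middle steps in the cytosol. ALAS1, found in most cells, and ALAS2, the form of red cell precursors, catalyse the same opening reaction, which joins glycine to succinyl-CoA and sets the pace of the pathway. ALAD then joins the product into porphobilinogen, UROS closes the ring, UROD and CPOX trim its side chains, PPOX oxidises it to protoporphyrin and FECH (ferrochelatase) inserts the iron. Most heme of the body goes into hemoglobin, and in the fetus red cells are made mainly in the liver. The liver also makes heme for its cytochrome P450 enzymes, with ALAS1 as the controlled step.

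Values are TPM, a share of each library's transcripts corrected for gene length, so that messages of different genes may be compared. Footprint levels of different genes are less comparable, since the coding part of each length was not taken into account. Read totals were not analysed here, so the depth behind each value is unknown. Between 48.9% and 93.4% of the full TPM scale fell on the listed genes in RNA-seq libraries, and between 23.1% and 61.1% in Ribo-seq libraries, and the RNA-seq library of E15.5 kidney replicate 2 was the lowest of its assay. Pearson's r between replicates, across genes on the log2 scale, was 0.987 to 0.999 for RNA-seq libraries. For Ribo-seq libraries it was 0.976 to 0.999. Defining markers of each tissue were present in its own RNA-seq libraries, with at least 5 of the listed genes of the tissue at 1 TPM or more at each stage. Markers of other tissues were present as well, with hepatocyte genes at 1818 to 2973 TPM in E15.5 kidney messages and 3732 to 3806 TPM in E15.5 kidney footprints. Lung genes summed to 465 to 1593 TPM in P42 heart footprints and 727 to 2914 TPM in P42 kidney footprints. Differences were fitted with limma on log2(TPM + 1), with Benjamini-Hochberg adjusted p-values over all genes tested, and a call needed an adjusted p under 0.05 and at least 1 on the log2 scale. The scale understates the change of low genes. The stages were deposited in separate tables, so stage and table cannot be told apart. In whole tissue, fewer cells of a type and less RNA per cell cannot be told apart either.

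The 2 genes of the opening step lie on different chromosomes. In GRCm38 coordinates Alas1 (ENSMUSG00000032786) is at chr9:106233455-106248654 on the minus strand and Alas2 (ENSMUSG00000025270) at chrX:150547375-150570638 on the plus strand. Alas2 messages are known to carry an iron-responsive element ahead of their start codon, a hairpin that iron regulatory proteins hold when iron is short and that blocks translation then. It is shown because it is a known control of translation at the step for which both assays are compared here. In a GENCODE M21 transcript of Alas2 the loop letters CAGTGC, in capitals, begin 31 bases before the start codon. The 28 bases shown run from position 150547459 in exon 1 to 150552149, the opening base of exon 2, on chromosome X.
Alas2 element: tggttcgtcctCAGTGCagggcaacagg

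Promoter windows of 300 bases (250 before and 50 after a RefSeq start, GRCm38.p6) were available for 7 of the 8 genes, and Fech had none. They were searched on both strands for the letters AGATAA, the variants AGATAG and also TGATAA, plus the variant TGATAG, the motif that the erythroid factor GATA1 is known to recognise. At least 1 match is found in 29.8% of all 32851 windows of this length, so a match by itself is common. Matches were found for Alas2 (1), Cpox (3) and 1 of the 2 windows of Uros (2), and no match was found in the windows of Alas1, Alad, Urod or Ppox. The letters CACCC, to which KLF1 type factors are known to bind, were found in 57.5% of all windows. They were in the windows of Alas1, Alas2, Alad, Urod and Cpox, at 3 places in Alas2 and 4 in Cpox. The stretches shown hold the match of Alas2, the pair upstream of Cpox and the nearer of the Uros pair, with matches in capitals as read on the strand of the gene. They are chrX:150547267-150547374 on the plus strand for Alas2, chr16:58670088-58670207 on the plus strand for Cpox and chr7:133702551-133702580 on the minus strand for the internal start of Uros. In Cpox a pair of matches shares 1 base. No binding was measured here, and the matches describe only the letters.
Alas2 promoter: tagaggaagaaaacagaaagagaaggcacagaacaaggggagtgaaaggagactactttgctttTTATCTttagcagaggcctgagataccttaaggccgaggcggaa
Cpox promoter: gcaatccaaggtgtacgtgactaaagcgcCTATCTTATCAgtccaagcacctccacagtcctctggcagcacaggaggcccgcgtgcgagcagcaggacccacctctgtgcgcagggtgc
Uros internal start: tctccctcagccTTATCAgtgacagagggc

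In the liver Alas1 was higher at P42 and the other 7 genes, Alas2 among them, were lower, by messages and by footprints. Alas1 messages were at 76.1 and 184 TPM in P42 livers, against 14.9 and 16.7 TPM in E15.5 livers. Both P42 libraries lay above both E15.5 libraries, and the P42 pair differed widely. Alas1 rose by 2.83 ± 0.28 on the log2 scale (SE, adjusted p = 4.04e-09). Its footprints, at 53.5 and 186 TPM in P42 livers and at 23.99 and 19.8 TPM in E15.5 livers, rose by 2.15 ± 0.36 (adjusted p = 3.72e-05). The size of that rise rests on the P42 replicates. Without replicate 1 it was 3.47 by messages and 3.03 by footprints, and without replicate 2 it was 2.20 by messages and 1.26 by footprints, with the call kept each time.

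Alas2 went the other way in the liver. Its messages were at 34.8 and 26.7 TPM in P42 livers, against 1702 and 1642 TPM in E15.5 livers. Its footprints were at 22.2 and 24.2 TPM in P42 livers, against 818 and 1044 TPM in E15.5 livers, so the groups lay far apart in both assays. Alas2 fell by 5.73 ± 0.34 by messages (adjusted p = 7.43e-13), and its footprints fell by 5.26 ± 0.41 (adjusted p = 2.15e-09). It fell most of the 8 genes.

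The genes that follow the opening step were all lower in the P42 liver. Ferrochelatase (Fech, chr18:64452914-64490251, minus strand) had 64.1 and 63.1 TPM in P42 livers, against 933 and 821 TPM in E15.5 livers. Uros (chr7:133686243-133710072, minus strand) had 5.73 and 6.06 TPM in P42 livers, against 132 and 124 TPM in E15.5 livers. Ppox (chr1:171275990-171281186, minus strand) had 8.27 and 8.49 TPM in P42 livers, against 211 and 225 TPM in E15.5 livers. No P42 value of these genes came near an E15.5 value. Urod (chr4:116989965-116994413, minus strand) had 50.1 and 61.0 TPM in P42 livers, against 505 and 489 TPM in E15.5 livers. Cpox (chr16:58670292-58717636, plus strand) had 22.9 and 20.4 TPM in P42 livers, against 362 and 276 TPM in E15.5 livers. Alad (chr4:62509169-62519918, minus strand) had 130 and 173 TPM in P42 livers, against 392 and 381 TPM in E15.5 livers, the smallest gap of the 7. The log2 difference was -4.55 ± 0.18 for Ppox, -4.23 ± 0.20 for Uros, -3.81 ± 0.24 for Cpox, -3.76 ± 0.20 for Fech and -3.14 ± 0.20 for Urod. Alad fell by 1.36 ± 0.19. The adjusted p-values of these 6 ran from 2.99e-16 for Ppox to 1.06e-06 for Alad. By footprints the 6 ran from -4.94 (Ppox) to -2.88 (Alad).

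Of all genes tested in the liver, 47.0% were lower and 13.4% higher at P42 by messages, and 44.0% and 10.2% by footprints. The median of the 8 genes was -3.79 by messages and -3.66 by footprints, beside -0.89 and -0.85 over all genes tested. The call of Alad by messages was lost in 2 of 4 other scalings of the libraries. The other 7 message calls and all 8 footprint calls were kept in all 4.

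**Figure D1:**
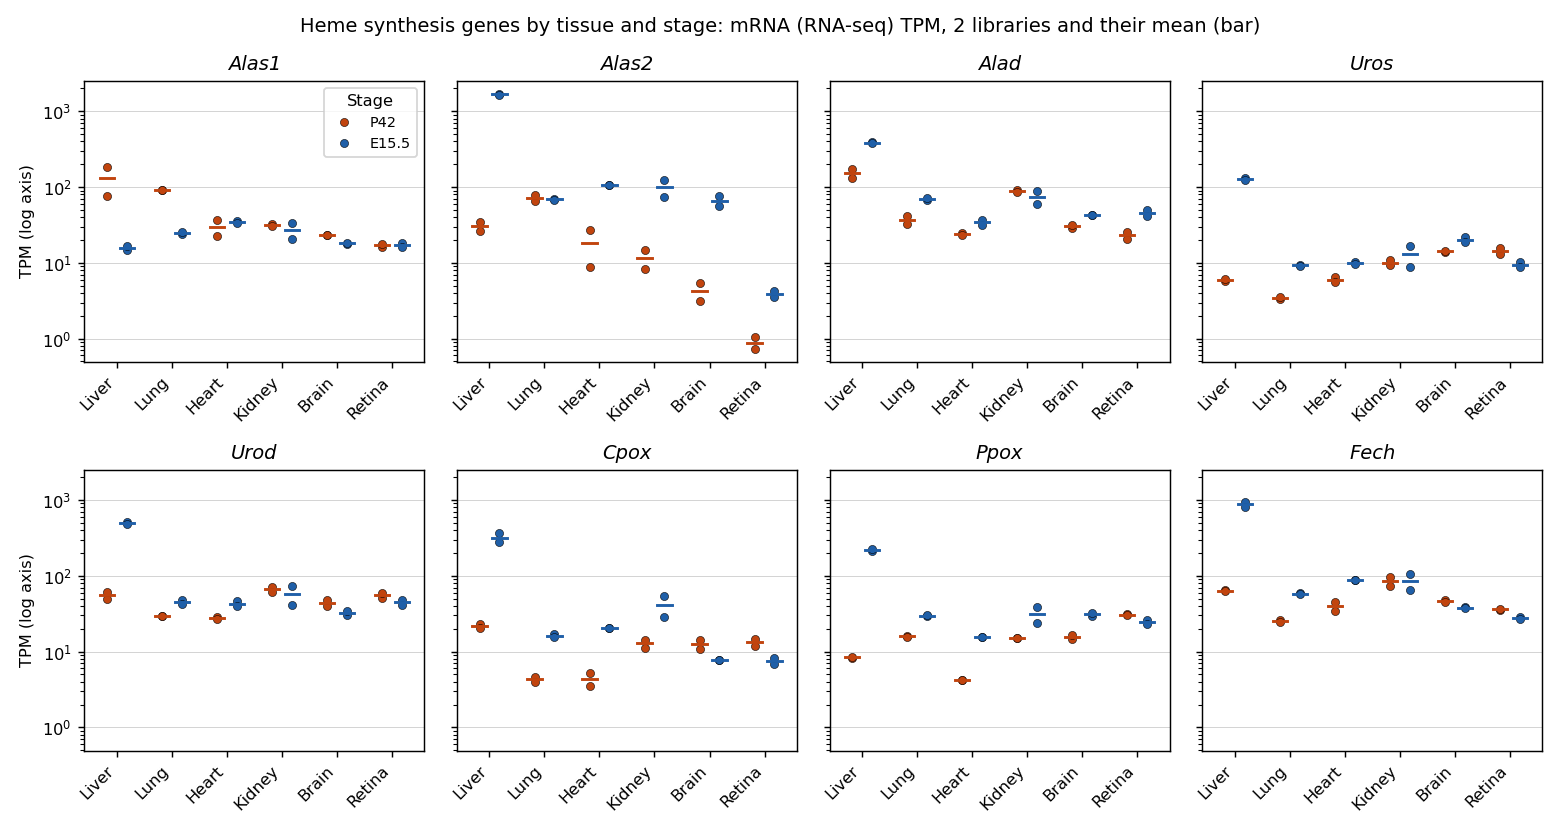
RNA-seq TPM on a log axis for each of the 8 genes in 6 tissues, with P42 (orange) left of E15.5 (blue); each point is 1 library and each bar the mean of 2. Alas2 stands at 1642 and 1702 TPM in E15.5 livers, and Alas1 is above its E15.5 level in P42 liver and lung.

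Red cell genes moved with these falls. The 16 erythroid markers measured, which are globins, red cell membrane genes, Gata1 and Klf1, summed to between 525 and 782 TPM in P42 livers and between 109578 and 124015 TPM in E15.5 livers, and all 16 fell. Embryonic globins Hbb-y and Hbb-bh1 were listed at 0 in P42 livers. Hepatocyte markers summed to between 164511 and 168314 TPM in P42 livers and between 44152 and 49413 TPM in E15.5 livers, and 5 of 7 rose by messages and 1 of 7 by footprints. The part of the cell makeup in the changes of the heme genes was not tested.

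At E15.5 the liver had the highest level of 7 of the 8 genes in both assays, and each of the 7 was called higher there than in each of the other 5 tissues. Of all genes, 6.26% were called so for the E15.5 liver by messages and 6.22% by footprints, and 23.0% and 21.5% for any E15.5 tissue. The smallest lead over another tissue was 3.98 for Alas2 and 2.38 for Alad by messages (log2 differences), with the rest between. Alas2 averaged 1672 ± 42.0 TPM in E15.5 livers and 105 ± 0.0222 TPM in E15.5 hearts, the next tissue (SD, n = 2 each). Fech averaged 877 ± 79.3 TPM in E15.5 livers and 87.7 ± 0.0445 TPM in E15.5 hearts. Alas1 was the exception, with its lowest message level in the E15.5 liver, at 15.8 ± 1.27 TPM. Its E15.5 levels ran to 34.8 ± 1.52 TPM in the heart, and no tissue differed from its neighbour in that order by the test (adjusted p 0.211 to 0.835). Heart over liver was called, at 1.09 ± 0.28 (adjusted p = 0.00151), and the heart also passed the test against brain and retina, with smaller differences (adjusted p = 0.00663 and 0.00304).

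At P42 no tissue led the pathway. Alas1 averaged 130 ± 76.4 TPM in livers and 91.5 ± 0.936 TPM in lungs, which did not differ by the test (adjusted p = 0.255), and then 31.5 ± 1.38 TPM in kidneys, 29.4 ± 9.87 TPM in hearts, 23.5 ± 0.116 TPM in brains and 17.004 ± 1.15 TPM in retinas. The step from lung to kidney passed the test (adjusted p = 6.03e-05). Alas2 was highest in P42 lungs, at 72.4 ± 9.35 TPM, followed by livers at 30.7 ± 5.73 TPM, and its lead of 1.22 over the liver was called (adjusted p = 0.00316), though not without mitochondrially encoded genes. It was the only of the 8 genes called higher by messages in 1 P42 tissue than in each other, against 38.5% of all genes for any tissue and 6.95% for the lung. By footprints none was called, against 35.4% of all genes, while 3 of the 8 had an unadjusted p below 0.05 against each other tissue with limma. These were Uros in brain, Cpox in liver and Alad in liver. Their smallest leads were 0.84, 0.55 and 0.49 on the log2 scale, all under the fold threshold. After adjustment in limma Uros and Cpox still passed (largest adjusted p = 0.00359 and 0.0362), and Alad did not (0.0547). Ppox messages were highest in P42 retinas, at 30.5 ± 0.666 TPM, with a lead of 0.89 that stayed under the fold threshold, and Fech and Urod messages in P42 kidneys, at 85.9 ± 16.4 and 66.4 ± 7.22 TPM, both with leads over the liver that did not pass the test (adjusted p = 0.0701 and 0.298).

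**Figure D2:**
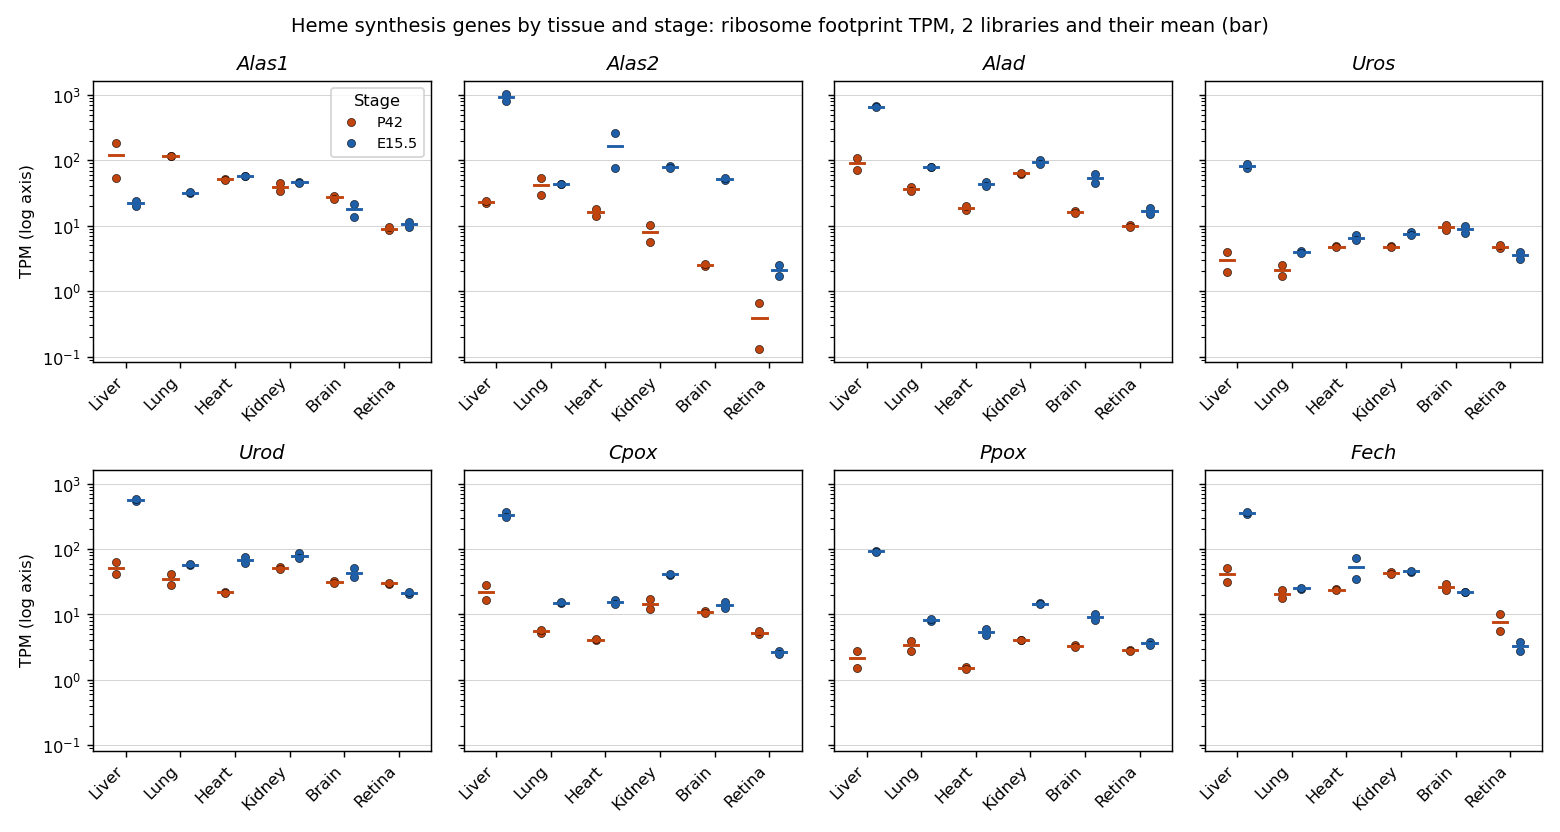
Ribosome footprint TPM on a log axis, drawn as for messages, with P42 (orange) left of E15.5 (blue), 2 libraries and their mean. In E15.5 livers 7 of the 8 genes stand above the other E15.5 tissues, and the 2 E15.5 heart libraries of Alas2 are far apart at 258 and 75.7 TPM.

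In the lung Alas1 rose at P42, and no change of Alas2 was called. Alas1 messages were at 92.2 and 90.8 TPM in P42 lungs, against 23.97 and 25.2 TPM in E15.5 lungs, and its footprints at 117 and 116 TPM in P42 lungs, against 31.4 and 32.9 TPM in E15.5 lungs. The groups were far apart with little spread. Alas1 rose by 1.85 ± 0.28 by messages (adjusted p = 2.43e-06) and by 1.83 ± 0.36 by footprints (adjusted p = 2.62e-04). Alas2 messages were at 65.8 and 79.0 TPM in P42 lungs and at 69.8 and 67.8 TPM in E15.5 lungs, so the groups overlapped, with a difference of 0.07 ± 0.34 (adjusted p = 0.858). With median-of-ratios scaling and with contrasts centred on the median gene, that difference became 1.36 and 1.18 and was called. By messages Cpox (-1.70 ± 0.24), Uros (-1.22 ± 0.20) and Fech (-1.16 ± 0.20) fell, and by footprints Cpox (-1.31), Alad (-1.10) and Ppox (-1.09). Without P42 replicate 2 the footprint calls of Alad and Ppox were lost, at -0.99 and -0.89. Those 2 footprint calls were each kept in 2 of 4 scalings, and that of Cpox in 3. Of all genes tested in the lung, 53.5% were lower and 10.1% higher by messages, and 22.8% and 18.6% by footprints. The median gene differed by -1.11 in messages, and the 3 message falls were -1.16 to -1.70; each was lost in 2 of 4 scalings.

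Red cell markers in the lung stood at sums of 6542 to 7023 TPM at P42 and 4173 to 4535 TPM at E15.5 by messages. By footprints they were lower at P42, at 1170 to 2237 TPM against 2627 to 2637 TPM at E15.5, and 6 of 13 fell. By messages the globin gene Hbb-bs rose by 1.01 ± 0.35 (adjusted p = 0.0104), and Hbb-y, Hbb-bh1, Hba-x and Slc4a1 fell. Lung markers such as the surfactant genes took 262165 to 376892 TPM in P42 lungs and 3829 to 4788 TPM in E15.5 lungs. The part of these markers in the values of Alas1 and Alas2 was not tested.

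The change of Alas2 in the lung differed from its change elsewhere. Its change in the lung minus the mean of its changes in the other 5 tissues was 3.36 ± 0.37 by messages (adjusted p = 9.91e-08) and 3.18 ± 0.44 by footprints (adjusted p = 1.32e-05). Alas1 also changed more in the lung, by 1.22 ± 0.31 by messages and 1.40 ± 0.40 by footprints, and in the liver, by 2.40 ± 0.31 and 1.78 ± 0.40. The lung call of Alas1 was lost by messages without mitochondrially encoded genes, at 0.91, and by footprints with listed genes rescaled to an equal sum, at 0.78. Of all genes, 31.0% differed in this way in the lung by messages and 24.6% by footprints, and 36.6% and 28.2% in the liver. Liver and lung were picked for this comparison after the values were seen.

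Outside liver and lung, Alas2 was lower at P42 in every tissue. In brains its messages were at 5.38 and 3.14 TPM at P42, against 75.7 and 56.5 TPM at E15.5, and it fell by 3.69 ± 0.34 (adjusted p = 2.65e-09). In kidneys they were at 14.7 and 8.37 TPM at P42, against 124 and 74.7 TPM at E15.5, and it fell by 3.01 ± 0.34 (adjusted p = 4.74e-08). In hearts they were at 27.3 and 8.84 TPM at P42, against 105 and 105 TPM at E15.5, and it fell by 2.67 ± 0.34 (adjusted p = 1.82e-07). Groups did not overlap in any of these tissues. In retinas the level was low, at 1.05 and 0.726 TPM at P42 and 3.51 and 4.23 TPM at E15.5, and it fell by 1.37 ± 0.34 (adjusted p = 0.00117). Its footprints fell too, with differences of -3.91 in brain, -3.20 in kidney, -3.04 in heart and -1.18 in retina, the last -0.91 and not called without P42 replicate 1. Of all genes tested, 36.0% were lower in brain, 43.9% in kidney, 74.6% in heart and 24.7% in retina by messages, and 17.7%, 40.2%, 50.6% and 16.2% by footprints. In the same order 11.7%, 13.1%, 2.73% and 18.6% were higher by messages, and 20.2%, 12.2%, 10.2% and 21.3% by footprints. The heart and retina message calls were lost with median-of-ratios scaling, at -0.73 and -0.96, and those of brain and kidney were kept in all 4 scalings.

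Red cell markers and Alas2 differed in the same order between replicates in some heart groups and not in others. In E15.5 hearts, footprints of the 16 erythroid markers summed to 18233 and 2908 TPM in replicates 1 and 2, and Alas2 footprints were 258 and 75.7 TPM there. The difference of Alas2 footprints in the heart was -2.17 without replicate 1 and -3.92 without replicate 2. In P42 hearts the marker messages summed to 1995 and 718 TPM, with Alas2 at 27.3 and 8.84 TPM. In P42 hearts the marker footprints summed to 649 and 672 TPM, with Alas2 footprints at 18.03 and 14.3 TPM, and in E15.5 hearts the marker messages summed to 6199 and 5113 TPM, with Alas2 at 105 and 105 TPM. The message difference of Alas2 was -3.43 without P42 replicate 1 and -1.91 without replicate 2. In the other tissues the marker messages summed to 252 to 374 TPM in P42 brains against 5687 to 6209 TPM in E15.5 brains, to 514 to 878 TPM in P42 kidneys against 3705 to 6409 TPM in E15.5 kidneys, and to 45.99 to 47.995 TPM in P42 retinas against 245 to 284 TPM in E15.5 retinas. Their part in the fall of Alas2 was not tested.

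In the heart, where 74.6% of all genes were lower by messages and 50.6% by footprints, 3 of the other 7 genes were called lower by messages and 5 by footprints. Cpox messages were at 5.20 and 3.49 TPM in P42 hearts, against 20.3 and 20.6 TPM in E15.5 hearts, and fell by 2.02 ± 0.24 (adjusted p = 5.46e-08). Ppox was at 4.21 and 4.24 TPM in P42 hearts, against 15.8 and 15.6 TPM in E15.5 hearts, and fell by 1.68 ± 0.18 (adjusted p = 8.95e-09). Fech fell by 1.13 ± 0.20, and by footprints Cpox, Urod, Ppox, Alad and Fech fell, with differences from -1.69 to -1.03. The call of Fech rested on single libraries, with -0.51 by footprints without E15.5 replicate 1 and -0.93 by messages without P42 replicate 2, neither called. The median gene differed by -1.61 in heart messages, and genes of the mitochondrial genome held 54.2% to 55.5% of the full scale in P42 hearts, against 14.5% to 14.98% in E15.5 hearts. With median-of-ratios scaling Ppox and Fech messages were higher at P42, by 0.12 and 0.86. Cpox kept its heart message call in 2 of 4 scalings, and Ppox and Fech in 1. The footprint call of Cpox was kept in 2 scalings, those of Urod and Ppox in 1 and those of Alad and Fech in 0, and with median-of-ratios scaling Alad and Fech footprints were higher at P42, by 0.12 and 0.27.

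Brain, kidney and retina showed few calls beyond Alas2. In kidneys Cpox messages were at 11.2 and 14.4 TPM at P42, against 54.2 and 28.4 TPM at E15.5, and fell by 1.56 ± 0.24 (adjusted p = 3.72e-06), a call kept in 2 of 4 scalings. Hepatocyte marker messages summed to 327 to 380 TPM in P42 kidneys, against 1818 to 2973 TPM in E15.5 kidneys, and their part in this fall was not tested. Footprints of Cpox (-1.46) and Ppox (-1.62) fell in kidney, and those of Ppox (-1.23) and Alad (-1.65) in brain. Both kidney footprint calls were kept in 2 of 4 scalings, and both brain calls in all 4. In retinas Fech footprints were at 5.49 and 10.1 TPM at P42, against 3.75 and 2.77 TPM at E15.5, and rose by 1.01 ± 0.30 (adjusted p = 0.00803). That rise was lost without P42 replicate 2, at 0.62, and without E15.5 replicate 2, at 0.84. Of all genes tested, 18.6% were higher in P42 retinas by messages and 21.3% by footprints.

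Over 48 pairs of gene and tissue, 18 were called lower and 2 higher at P42 by messages, and 23 lower and 3 higher by footprints. Over all genes and the 6 tissues, 46.1% of such tests were lower and 11.7% higher by messages, and 31.6% and 15.5% by footprints, so the message calls were no more frequent than among genes at large. With median-of-ratios scaling the message counts were 8 lower and 14 higher. Of the calls as deposited, 8 of the 18 and both rises were kept under all 4 other scalings by messages, and 13 of the 23 and 2 of the 3 by footprints. The rises kept were those of Alas1 in liver and lung.

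**Figure D3:**
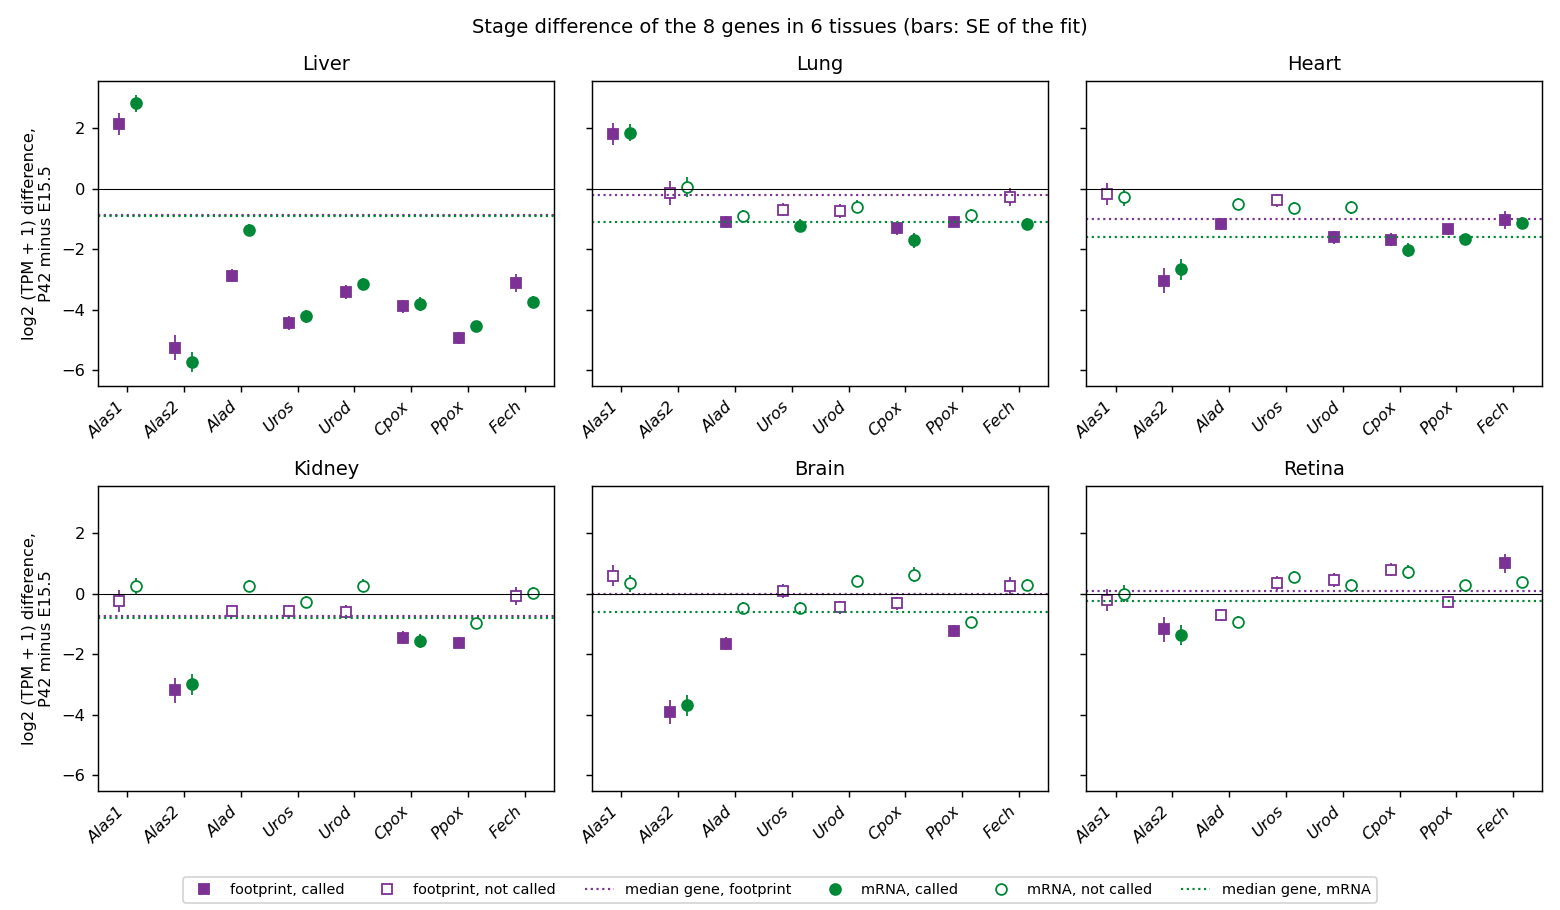
Difference of log2(TPM + 1), P42 minus E15.5, for the 8 genes in each tissue by footprints (purple squares) and messages (green circles), with SE bars; filled symbols are called and dotted lines mark the median gene of each assay. Liver values run from 2.83 for Alas1 to -5.73 for Alas2 by messages, and Alas2 is near 0 in the lung.

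The balance of the 2 synthases set the stages apart. Alas1 made up 53.5% (lung) to 96.1% (retina) of the sum of Alas1 and Alas2 message TPM in the P42 libraries, so it was the larger of the pair in each. At E15.5 its share was 0.867% and 1.01% in livers, and 19.2% to 27.1% in brains, hearts, kidneys and lungs. Retinas were apart, with 79.1% and 83.8% at E15.5. By footprints the share was 68.5% to 98.5% at P42 and, at E15.5, 1.87% and 2.85% in livers, 18.2% to 43.2% in brains, hearts, kidneys and lungs, and 78.9% and 87.1% in retinas. The P42 and E15.5 shares did not overlap within any tissue in either assay. Joined exons are 6174 bases long for Alas1 and 2403 for Alas2, and how much of each is coding was not taken into account. Footprint shares therefore compare stages and tissues, and do not tell which of the pair carried more ribosomes. With values as deposited, in brain, retina, heart and kidney Alas1 had no stage call in either assay, whereas Alas2 was called lower in both. With median-of-ratios scaling Alas1 messages were called higher in brain, heart and kidney, and its footprints in heart. The Alas2 message calls of heart (-0.73) and retina (-0.96) were lost there. With a pseudocount of 4 both retina calls of Alas2 were lost, at -0.69 by messages and -0.48 by footprints. In P42 retinas Alas2 was low, at 1.05 and 0.726 TPM by messages and 0.129 and 0.655 TPM by footprints.

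**Figure D4:**
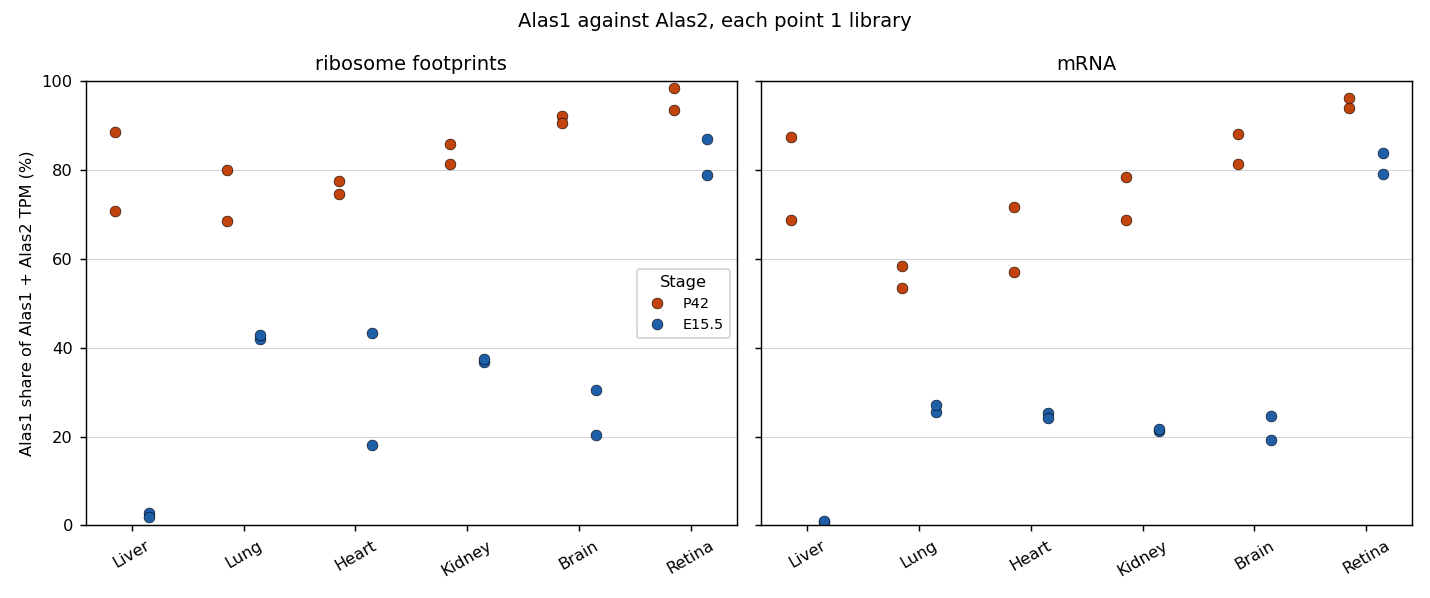
Share of Alas1 in the sum of Alas1 and Alas2 TPM (%), by footprints (left) and messages (right), with P42 (orange) left of E15.5 (blue) in each tissue and each point 1 library. P42 points lie above E15.5 points in every tissue, from 53.5% up by messages, and E15.5 livers lie near 1%.

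The genes differed in their footprint TPM for a given message TPM. The deposited values are at exon level, and joined exon lengths ran from 1871 bases for Alad to 13838 for Fech. How much of each is coding was not taken into account, so the ratio does not compare ribosome loading alone between genes. The ratio of footprint to message TPM, taken where messages averaged at least 5 TPM, stood above that of the median gene for Alas1, Alad and Urod in 12 of 12 groups. It did so for Uros in 11 of 11, Cpox in 10 of 10, Fech in 9 of 12 and Alas2 in 7 of 9 groups. Ppox was below the median gene in 11 of 11 groups. Its ratio was 0.093 to 0.466, with a median of 0.269, and its exons overlap those of B4galt3 on the other strand over 791 bases. Alas1 had ratios of 0.532 to 1.74 with a median of 1.27, and Alas2 of 0.557 to 1.59 with a median of 0.756. For Alas2 the ratio was lowest in E15.5 livers, at 0.557, close to 0.571 in P42 lungs. It was highest in E15.5 hearts, the group with the apart replicate. Ranked from the bottom among all genes of a group, Alas2 was lowest in P42 lungs, at 39.2%, and next in E15.5 livers, at 47.2%.

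The change of that ratio between stages (translational efficiency) was tested over all 48 libraries in 42 pairs of gene and tissue. Alad was called lower at P42 in liver, by 1.52 ± 0.28 (adjusted p = 9.92e-05), and in brain, by 1.19 ± 0.28 (adjusted p = 8.65e-04). Its footprint to message ratio was 0.600 in P42 livers, against 1.71 in E15.5 livers. Of all genes, 19.6% were called lower and 3.89% higher in liver, and 2.28% and 27.7% in brain. The shares were 1.87% and 11.8% in retina, 4.94% and 10.7% in heart, and 4.37% and 2.11% in kidney. The brain call was lost without the E15.5 footprint replicate 1, at -0.96, and was kept under all 4 scalings, whereas the liver call was kept under 3. No gene was called higher by limma, against 1.28% lower and 39.4% higher of all genes in lung. Fech in lung had the only unadjusted p below 0.05 in that direction. Its difference of 0.88 also passed adjustment in limma (adjusted p = 0.0396) but stayed under the fold threshold. Alas1 and Alas2 had no called change of efficiency in any tissue tested, with a difference in the liver of -0.69 ± 0.48 for Alas1 (adjusted p = 0.280) and 0.48 ± 0.57 for Alas2 (adjusted p = 0.552). Without P42 messages replicate 1 or P42 footprints replicate 2, the liver difference of Alas1 was -1.32 and -1.58. In P42 livers replicate 1 of Alas1 was the lower in both assays, at 76.1 TPM of messages and 53.5 TPM of footprints. Replicate 2 was at 184 and 186 TPM, so each of these fits sets unlike replicates of the assays against each other.

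**Figure D5:**
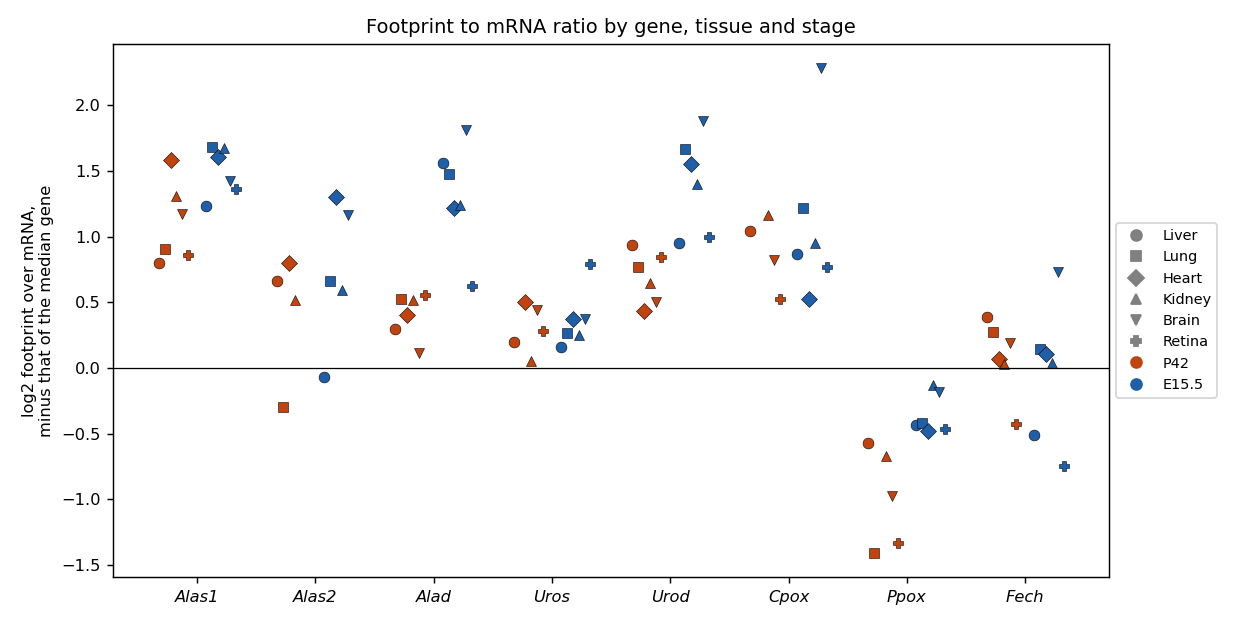
Log2 ratio of footprint to message TPM minus that of the median gene of the same tissue and stage, for each gene in P42 (orange) and E15.5 (blue), with a symbol for each tissue; groups under 5 TPM of messages are left out. Ppox lies below 0 in all 11 of its groups and Alas1 above 0 in all 12 of its groups.

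Other genes of heme and iron handling were also called in the liver. Of 18 genes for iron entry and heme traffic, 8 fell and none rose by messages, with a median of -0.71, beside 47.0% lower and a median of -0.89 over all genes, so the list as a whole stood near them. Mitoferrin 1 (Slc25a37), which brings iron into mitochondria, averaged 18.2 ± 1.40 TPM in P42 livers and 1045 ± 231 TPM in E15.5 livers, and fell by 5.76 ± 0.22. The transferrin receptor Tfrc averaged 2.64 ± 0.234 TPM in P42 livers and 405 ± 160 TPM in E15.5 livers, and fell by 6.75 ± 0.31. Slc25a38, a mitochondrial glycine carrier, fell by 3.06 ± 0.20, and Abcb10, a mitochondrial transporter of erythroid cells, fell by 4.74 ± 0.21. Tspo2, an erythroid relative of Tspo, was listed at 0 in P42 livers and averaged 143 ± 5.33 TPM in E15.5 livers. In lung 7 genes of this list fell and 1 rose, in heart 7 and 0, in kidney 3 and 5, in brain 2 and 1, and in retina 3 and 3, of 17 or 18 tested. Of all genes 53.5% were lower in lung and 74.6% in heart, so the falls there were no more frequent than among genes at large. In kidney 43.9% of all genes were lower and 13.1% higher, in brain 36.0% and 11.7%, and in retina 24.7% and 18.6%.

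Of 15 tested genes for heme breakdown, export and binding, 7 fell and 4 rose, beside 47.0% lower and 13.4% higher of all genes. Heme oxygenase Hmox1, which opens heme for recycling, averaged 25.7 ± 0.148 TPM in P42 livers and 402 ± 41.9 TPM in E15.5 livers, and fell by 3.91 ± 0.21. The plasma carriers Hp, which binds free hemoglobin, and Hpx, which binds free heme, rose by 4.40 ± 0.22 and 2.88 ± 0.25. Pgrmc1, a heme-binding protein, rose by 3.79 ± 0.22.

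All 12 erythroid regulators fell in the liver, with a median of -5.26, and so did all 17 globin and red cell membrane genes, with a median of -7.81, beside 47.0% lower of all genes. Gata1 averaged 0.0194 ± 0.0274 TPM in P42 livers and 164 ± 5.28 TPM in E15.5 livers, and Klf1 averaged 6.52 ± 0.0368 TPM in P42 livers and 319 ± 41.6 TPM in E15.5 livers. Differences were -11.12 ± 0.23 for the anion exchanger Slc4a1, -8.01 ± 0.35 for Hbb-bs and -3.76 ± 0.39 for Hba-a1. They were -7.40 for Nfe2, -6.93 for Tal1, -6.84 for Gfi1b, -8.76 for Ermap and -8.63 for Hbb-bt. The near-identical globin copies share reads, so their separate values are uncertain. In the lung 2 of 11 regulators fell, Bcl11a and Ldb1, with a median of -0.13, beside 53.5% lower of all genes and a median of -1.11.

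Of 7 factors known to act on Alas1 in liver, 2 rose and 1 fell there, beside 13.4% higher and 47.0% lower of all genes. The nuclear receptor Nr1i3 (CAR) averaged 121 ± 12.7 TPM in P42 livers and 10.4 ± 0.763 TPM in E15.5 livers, and rose by 3.41 ± 0.19. Nr1d1 (REV-ERB alpha) averaged 34.6 ± 8.51 TPM in P42 livers and 3.91 ± 0.494 TPM in E15.5 livers, and rose by 2.84 ± 0.21. In P42 lungs it averaged 77.9 ± 12.4 TPM, against 17.6 ± 0.811 TPM in E15.5 lungs, and rose by 2.07 ± 0.21. Nr1d1 was also called higher at P42 in brain, retina and kidney by messages, and in every tissue by footprints. With values as deposited Alas1 was called higher in liver and lung only, in both assays. With median-of-ratios scaling its messages were also called higher in brain (1.07), heart (1.70) and kidney (1.16), and its footprints in heart (1.15). With contrasts centred on the median gene, its messages were also called higher in heart (1.33) and kidney (1.06). Nrf1 fell by 3.05 ± 0.18 in liver. Ppargc1a, a coactivator that raises Alas1 on fasting, was at 3.30 ± 0.402 TPM in P42 livers and 4.87 ± 0.0168 TPM in E15.5 livers, with no call (adjusted p = 0.0518).

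Across the 12 means of tissue and stage by messages, the genes most like Alas2 were the adult beta globins Hbb-bt (r = 0.974) and Hbb-bs (0.971), then Tmc8 (0.942), Hba-a2 (0.939) and Dok2 (0.933). Among those most like Fech were Tmem14c (0.945), Cpox (0.943), 4933411K16Rik (0.939) and Urod (0.931). Among those most like Alas1 were B2m (0.927), Rnase4 (0.925), Nnmt (0.908) and Ang (0.896). The measure was Pearson's r of log2(TPM + 1) over 12 points, among 14458 genes that reached 10 TPM in a group, and the points share their libraries. Within the 8 genes Alas1 stood apart, with r of 0.08 to Alas2 and -0.22 to Fech, whereas Fech, Cpox and Urod had r of 0.93 to 0.94 with each other. Exons of Alas1 overlap 4930500F10Rik on the other strand over 465 bases, those of Cpox overlap Gpr15 over 204, those of Ppox overlap B4galt3 over 791, and those of Alas2 overlap Apex2 and Mir3620. The strand setting of the counting is not given in the sources used here, so reads there cannot be told apart.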

How the data were processed

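Libraries were made, per the labels' protocols, from frozen tissue lysed in the presence of cycloheximide, with Ribo-Zero depletion and an ARTseq kit for footprints and a VAHTS kit for poly(A) RNA. The authors used, per the submitters' processing notes, CASAVA 1.8.2, cutadapt 1.8.1, TopHat2 2.0.14 and featureCounts 1.6.2 on GRCm38.p6. The deposited values are TPM in 4 tables of 12 libraries, and how the authors took each TPM total is not given in the sources used here. Gene symbols were matched for 21952 of 22055 identifiers.

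For each assay limma 3.58.1 (R 4.3.3, empirical Bayes with a variance trend) was run on log2(TPM + 1), with 12 groups of tissue and stage. A gene needed 1 TPM in 2 libraries of the assay and on average in the tissue, and translational efficiency 5 TPM of messages at each stage. p-values measure the spread between 2 samples a group, pooled over tissues, with 12 residual degrees of freedom for an assay and 24 for both. Python 3.11.15, numpy 2.4.6, pandas 2.3.3 and matplotlib 3.10.9 were used. On simulated data with liver messages changed by 1.5 log2, 95% of 100 changed genes were called by messages, among 12695 tested. The changed genes were drawn from well-expressed genes. For efficiency in the liver, 80% were called where messages were changed by 1.5 log2 and 71.1% where footprints were.

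The members, gene lists and tests were chosen with earlier results of these data known. Genes named from the lists were the 4 largest called changes of each list by liver messages, 8 fixed genes (Hmox1, Slc25a38, Slc25a37, Tfrc, Gata1, Klf1, Hba-a1 and Hbb-bs) and the 5 genes most like Alas1, Alas2 and Fech. Ppargc1a, Bcl11a, Ldb1 and the lung globins were named after their values were seen. Values of some genes named by this rule are left out here, and Ahsp and Tf were not analysed here. Alternatives were other pseudocounts, scalings, filters, weights and a replicate block, and each library left out.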

Additional observations from a re-analysis of the deposited data

Results flagged for a closer look

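In the liver and the lung the change of several genes between P42 and E15.5 differed from the mean of its changes in the other 5 tissues, by a test of that difference in the limma fit (adjusted p under 0.05, with at least 1 on the log2 scale). Both tissues were picked after the values were seen. In the liver by messages the difference was 2.40 for Alas1, -3.60 for Alas2, -3.82 for Uros, -3.72 for Ppox, -3.45 for Fech, -3.10 for Urod and -3.02 for Cpox. In the liver by footprints it was 1.78 for Alas1, -2.96 for Alas2, -4.20 for Uros, -3.83 for Ppox, -3.09 for Cpox, -3.09 for Fech, -2.83 for Urod and -1.84 for Alad. In the lung it was 1.22 for Alas1 and 3.36 for Alas2 by messages, and 1.40 for Alas1 and 3.18 for Alas2 by footprints.

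Of all genes, 36.6% differed in this way in the liver by messages and 28.2% by footprints, and 31.0% and 24.6% in the lung. Only Alas1 and Alas2 were called in the lung, so calls there were about as frequent as among genes at large. The lung call of Alas1 was lost without mitochondrially encoded genes by messages (0.91), and with listed genes rescaled to an equal sum by footprints (0.78). Erythroid marker messages summed to 525 to 782 TPM in P42 livers against 109578 to 124015 TPM in E15.5 livers, and to 6542 to 7023 TPM in P42 lungs against 4173 to 4535 TPM in E15.5 lungs. Their footprints summed to 131 to 146 TPM in P42 livers against 30953 to 34165 TPM in E15.5 livers, and to 1170 to 2237 TPM in P42 lungs against 2627 to 2637 TPM in E15.5 lungs. Their part in these differences was not tested.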

How the results depend on the processing

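Of 2349 values for single genes under the alternatives, 2219 kept their side of the threshold, 60 lost a call and 57 gained one. The other 13 reversed direction, with a call before or after. A change of direction between uncalled values was counted among the 2219. The lower count by messages (18) was 8 with median-of-ratios scaling and 10 with contrasts centred on the median gene, and the higher count (2) was 14 and 10. The lower count by footprints (23) was 13 with median-of-ratios scaling and 14 with centring. For efficiency the lower count (2) was 4 with a pseudocount of 0.25, 8 with median-of-ratios scaling, 5 without mitochondrially encoded genes and 7 with centring, and the higher count (0) was 3 with listed genes rescaled to an equal sum. The count of genes leading in a P42 tissue by messages (1) was 3 with median-of-ratios scaling and 0 without mitochondrially encoded genes, and by footprints (0) it was 3 with median-of-ratios scaling. With each library left out, counts ranged from 17 to 19 lower and 2 to 2 higher by messages, 21 to 24 lower and 2 to 3 higher by footprints, and 1 to 4 lower and 0 to 1 higher for efficiency. Leads ranged from 7 to 7 at E15.5 in both assays, 1 to 2 at P42 by messages and 0 to 1 at P42 by footprints. A single library left out reversed no called value. The 13 reversals that involved a call were in heart and lung. With median-of-ratios scaling, heart messages were higher at P42 by 1.70 for Alas1, 1.49 for Alad, 1.2005 for Uros, 1.36 for Urod, 0.12 for Ppox and 0.86 for Fech, lung messages by 0.12 for Fech, and heart footprints by 1.15 for Alas1, 0.12 for Alad and 0.27 for Fech. With centring, heart messages were higher by 1.33 for Alas1, 1.12 for Alad and 0.48 for Fech. The cause was not tested. Same-numbered libraries moved together in some groups only, with correlations of their deviations from -0.36 to 0.48 between the assays and 5 of 12 over 0.1. Such mixed values cannot tell whether the numbers pair the samples, so pairing is not known. The replicate block gave the same 18, 2, 23, 3, 2 and 0 calls. TPM keep no depth, so counting error is unknown.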
